A study of Homo sapiens with 4 samples.

Results

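The genes described here encode 54 nucleolar ribosome assembly factors, which were named by function: the protein cores of small nucleolar ribonucleoproteins (snoRNPs), general nucleolar proteins, and factors of the small and the large ribosomal subunit. They were chosen with earlier results of these data known. Each gene was represented by its brightest probe set among those that the platform annotation assigns to 1 gene symbol, which gave 50 measured members of 18417 measured genes. NOP56, EBNA1BP2, DDX18 and GNL3 are not analysed here, NOP56 because its annotated probe set is shared with a small nucleolar RNA gene. The samples were MiaPaCa2 cells, an established human pancreatic carcinoma line, profiled on Human Gene 1.0 ST arrays after 24 h with LY101-4B at 50 µM (2 arrays) or with vehicle (2 arrays), and the study asks how this line responds to a compound that it calls an E2F inhibitor. One protocol text attached to the same samples names LY101-4D at 25 µM instead, whereas the titles, the agent labels and the design give LY101-4B at 50 µM. Both groups were grown in the same serum-containing medium, all arrays come from 1 cell line, and the design calls the arrays of a group biological replicates without saying how the cultures were separated. The labels name a FlashTag biotin kit, a kind made for small RNA, for labelling the total RNA, and how far that holds for these arrays was not tested.

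Values are log2 units after RMA, a procedure that corrects background, equalises the arrays and summarises the probes of a probe set, so a difference of -1 is a halving relative to the bulk of probe sets. The array medians lay between 5.88 and 5.97. Across 21214 annotated probe sets the LY101-4B arrays correlated at 0.994 and the vehicle arrays at 0.997, against 0.978 to 0.981 between groups. Of the 7 markers used to check the line, KRT8, KRT18 and VIM had values between 11.86 and 13.00 on the 4 arrays, KRT19 between 9.06 and 9.28 and KRT7 between 5.81 and 6.10, whereas the epithelial surface genes EPCAM and CDH1 lay between 3.77 and 4.63. The keratin genes KRT8 and KRT18 themselves fell in the LY101-4B cells, by 0.84 and 0.57 log2 units (limma adjusted p 0.00371 and 0.0106). Which locus the KRT18 probe set reads was not tested. Of the markers of other cells, those of leukocytes (PTPRC), endothelium (PECAM1) and acinar cells (PRSS1) lay between 3.36 and 4.90 and the collagen gene COL1A1 between 6.88 and 7.02, and 0 of these 4 passed, also at an unadjusted limma p under 0.05. No detection calls were used, so no gene was called absent, and in these bulk samples fewer cells with a transcript and less of it per cell cannot be told apart.

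A ribosome is built in the nucleolus from one long precursor RNA transcribed by RNA polymerase I. SnoRNPs modify that precursor: box C/D particles guide ribose methylation through FBL, and box H/ACA particles guide pseudouridylation through DKC1. The small subunit processome then assembles on the nascent transcript and matures into a pre-40S particle, while a separate chain of factors builds the pre-60S particle, and the genes for these proteins are known as a co-regulated group in growing cells, with MYC among the factors known to bind many of their promoters through the E-box sequence.

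Most of these genes were lower after LY101-4B. In the LY101-4B cells 41 of 50 measured members fell and 0 rose at a limma adjusted p under 0.05, and 9 did not pass; at an unadjusted limma p under 0.05, 45 were lower and 0 higher. Over all 18417 measured genes, 10.7% were called lower and 8.88% higher. The median difference of the members was -0.53 log2 units, which is a 1.45-fold fall, against 0.005 over all genes. On both LY101-4B arrays 47 of 50 members lay below both vehicle arrays, against 29.7% of all genes, and the other 3 overlapped. The falls were moderate in size: 3 of the 41 called members reached 2-fold, against 310 of the 1973 genes called lower over all genes. The members ranged from -1.21 for UTP20 to 0.02 for NOP10.

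**Figure D1:**
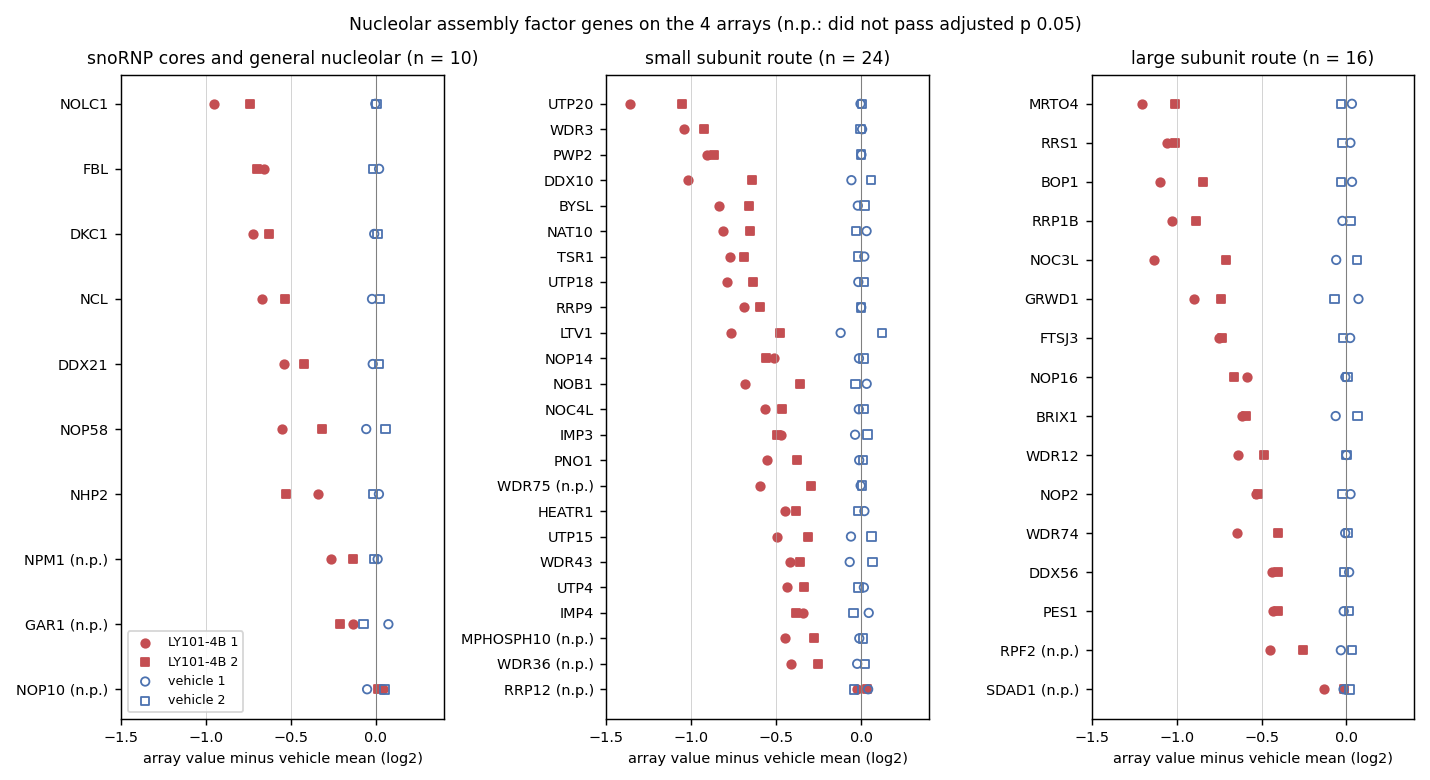
Each measured member's value on each array minus its mean on the vehicle arrays (log2, horizontal axis), for snoRNP cores and general nucleolar proteins, the small subunit route and the large subunit route; filled red symbols are LY101-4B arrays and open blue symbols vehicle arrays. For 47 of 50 members both red symbols lie left of both blue ones; NOP10, RRP12 and SDAD1 overlap.

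How many members passed depended on single arrays. Without vehicle replicate 2 the fit called 16 members lower, without vehicle replicate 1 it called 19, and without LY101-4B replicate 1 it called 28, against 42 without LY101-4B replicate 2. The number of all genes called lower moved the same way: 715, 766 and 1320 in the first 3 of these fits and 2210 in the last, against 1973 with all arrays. The calls of 16 members held without each array in turn: FBL, DKC1, NOLC1, PWP2, WDR3, UTP18, UTP20, NAT10, BYSL, TSR1, BOP1, RRS1, RRP1B, FTSJ3, MRTO4 and GRWD1. The members' median stayed between -0.61 and -0.51 in these 4 fits.

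A promoter feature that played no part in choosing the members was common among them. RefSeq promoter sequences (GRCh38.p14, 250 bases before and 50 after the annotated start of the gene) were at hand for 45 of the 54 members. The E-box CACGTG, which reads the same on both strands, was found in 23 of these 45 (51.1%), compared with 10.8% of the 14197 other measured genes with such a sequence. Most of the excess lay around the start. A match began within the first 50 transcribed bases in 16 of 45 members (35.6%) and in 1.18% of the other genes, and within the 50 bases before the start in 6 members (13.3%) and 3.35% of the others. Farther upstream, 0 to 3 members per 50 bases had a match. From -250 to -201 there were 3 (6.67%, against 1.43% of the others). From -200 to -51 the share per 50 bases was 0.0% to 2.22%, against 1.68% to 2.68% of the others.

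**Figure D2:**
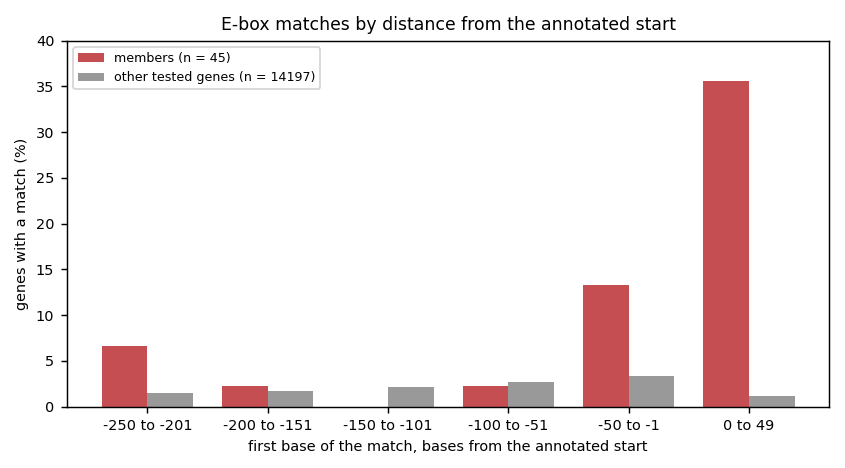
Share of genes with an E-box match by the distance of its first base from the annotated start (50-base bins, 0 being the first transcribed base), for the 45 members with a promoter sequence (red) and 14197 other measured genes (grey). The members stand highest in the bin from 0 to 49, with 35.6% against 1.18%.

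Windows of 30 bases around the match, with the E-box in capitals, are shown for members with large falls (UTP20, MRTO4, NOC3L, PWP2, BYSL, NAT10, UTP18 and FBL), then for 2 members that did not pass (NOP10 and GAR1), to show that both kinds carry it; all are 5′ to 3′ on the gene's strand, from RefSeq, GRCh38.p14.
UTP20 (chr12:101280083-101280112, plus strand): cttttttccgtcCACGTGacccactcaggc
MRTO4 (chr1:19251807-19251836, plus strand): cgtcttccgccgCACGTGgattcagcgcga
NOC3L (chr10:94362903-94362932, minus strand): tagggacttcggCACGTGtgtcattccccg
PWP2 (chr21:44107388-44107417, plus strand): tgagctgcggcaCACGTGcgacggccgtga
BYSL (chr6:41921515-41921544, plus strand): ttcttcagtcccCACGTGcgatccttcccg
NAT10 (chr11:34105602-34105631, plus strand): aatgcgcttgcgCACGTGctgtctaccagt
UTP18 (chr17:51260538-51260567, plus strand): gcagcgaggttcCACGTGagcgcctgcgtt
FBL (chr19:39846356-39846385, minus strand): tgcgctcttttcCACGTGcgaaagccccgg
NOP10 (chr15:34343130-34343159, minus strand): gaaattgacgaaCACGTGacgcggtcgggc
GAR1 (chr4:109815781-109815810, plus strand): gggccagaggggCACGTGgcgccggtgagt
In UTP20 the match begins 10 bases before the annotated start and in NOP10 11 bases before it, while in MRTO4 it begins 14 bases and in PWP2 1 base after it.

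The share with an E-box was the same in members that fell and in those that did not pass. It was found in 18 of 36 called members with a promoter sequence and in 3 of 6 members that did not pass. These 3 were NOP10, SDAD1 and GAR1, and no measured member without a match lay above -0.20 log2 units. The measured members with a match had a median difference of -0.54 log2 units (n = 21) and those without one -0.53 (n = 21). The E2F motifs searched, TTTCCCGC and TTTGGCGC on either strand, were found in 2 of 45 members (4.44%), PES1 and WDR36, and in 3.78% of the other measured genes. Of the 1666 genes called lower with a promoter sequence, members included, 7.8% held an E2F motif and 14.2% an E-box. A match is only a run of letters in this window, and whether any factor occupies it in these cells was not tested.

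Among the core proteins of the snoRNPs, FBL, the ribose methyltransferase, had values of 10.53 and 10.49 on the LY101-4B arrays, against 11.21 and 11.17 on the vehicle arrays. Its groups were clearly apart, and it fell by 0.68 ± 0.09 log2 units (SE; limma adjusted p 0.00487), which is 1.60-fold. NOP58, a scaffold protein of the same particles, read 10.79 and 11.02 with LY101-4B, against 11.28 and 11.39 with vehicle. It fell by less, 1.35-fold (limma adjusted p 0.0474), and this call was lost without either vehicle array or LY101-4B replicate 1 (adjusted p 0.143, 0.25 and 0.115).

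The 4 proteins of the box H/ACA core did not move alike. DKC1, dyskerin, the pseudouridine synthase, had 10.12 and 10.22 on the LY101-4B arrays, against 10.84 and 10.86 on the vehicle arrays, a 1.60-fold fall (limma adjusted p 0.00558). NHP2 read 9.63 and 9.44 with LY101-4B, against 9.98 and 9.95 with vehicle, and fell 1.35-fold (adjusted p 0.0342), a call lost without either vehicle array or LY101-4B replicate 2 (0.194, 0.161 and 0.0677). The other NHP2 probe set was called lower too (-0.59, limma adjusted p 0.00922), as was the mean of both (-0.51, adjusted p 0.0113). The remaining core proteins did not pass. GAR1 had 8.17 and 8.09 on the LY101-4B arrays, against 8.37 and 8.23 on the vehicle arrays (-0.17 ± 0.10 log2 units, SE; adjusted p 0.293), without overlap. NOP10 had 10.10 and 10.07 on the LY101-4B arrays, against 10.01 and 10.11 on the vehicle arrays (0.02 ± 0.09; adjusted p 0.888), with overlapping groups; its sign turned to -0.04 when arrays were centred on their medians.

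Of the general nucleolar proteins, NOLC1 (Nopp140), a chaperone of snoRNPs, moved most. It had 9.70 and 9.91 on the LY101-4B arrays, against 10.65 and 10.66 on the vehicle arrays, and fell by 0.85 ± 0.10 log2 units, or 1.80-fold (SE; limma adjusted p 0.00457). Nucleolin (NCL), an abundant RNA-binding protein of the nucleolus, read 11.85 and 11.98 in LY101-4B cells, against 12.50 and 12.54 in vehicle cells, and fell 1.52-fold (adjusted p 0.00936; 0.062 and 0.0749 without either vehicle array). The RNA helicase gene DDX21 fell 1.40-fold (adjusted p 0.0178; 0.11, 0.133 and 0.0512 without either vehicle array or LY101-4B replicate 1). Nucleophosmin (NPM1), the histone and ribosomal protein chaperone, had 12.78 and 12.90 on the LY101-4B arrays, against 13.05 and 13.03 on the vehicle arrays; the groups did not overlap, but the difference of -0.20 ± 0.09 did not pass (adjusted p 0.201; 0.0148 with an intensity trend). Of the other NPM1 probe sets, 1 was called lower (-0.44, adjusted p 0.0266), and those with differences of -0.24 and -0.23 did not pass. NPM1, NHP2, RPF2 and SDAD1 have pseudogene copies in the RefSeq gene table, so which locus each of their probe sets reads is uncertain. For most members the probe set numbers run in chromosome order. The brightest probe set of NHP2 (chromosome 5) is numbered between those of DDX21 and NOLC1, on chromosome 10. That of RPF2 (chromosome 6) is numbered between those of NCL, on chromosome 2, and RRP1B, on chromosome 21. The other RPF2 probe set is numbered between those of BYSL and LTV1, on chromosome 6. The brightest probe sets of NHP2 and RPF2 may thus read another locus, which was not tested.

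Of the 24 small subunit members 20 fell, 4 did not pass and 0 rose, with a median difference of -0.52 log2 units. The earliest module to bind the nascent precursor, the UTP-A complex, moved little and evenly: UTP4, UTP15, WDR43, WDR75 and HEATR1 lay between -0.44 and -0.39, and 4 of 5 were called lower. UTP4 had 11.27 and 11.37 on the LY101-4B arrays, against 11.72 and 11.69 on the vehicle arrays, a 1.31-fold fall (limma adjusted p 0.0325). WDR75, with 9.67 and 9.98 on the LY101-4B arrays, against 10.27 on both vehicle arrays, had the widest difference of the module but did not pass (-0.44 ± 0.12, SE; adjusted p 0.0563). It passed at 0.0213 without LY101-4B replicate 2 and at 0.0444 with the replicate number as a block. Each of the 4 calls was lost without either vehicle array or LY101-4B replicate 1, at adjusted p from 0.0622 to 0.273, and that of WDR43 also without LY101-4B replicate 2 (0.062).

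The UTP-B complex, which joins next, fell further, with a median of -0.80. WDR3 read 8.47 and 8.58 with LY101-4B, against 9.51 and 9.50 with vehicle, and fell by 0.98 ± 0.09 log2 units, or 1.98-fold (SE; limma adjusted p 0.002). PWP2 and UTP18 carry an E-box at the start, shown above, whereas WDR3 had none in its promoter sequence. PWP2 fell 1.85-fold (adjusted p 0.00218) and UTP18 1.64-fold (adjusted p 0.00594). WDR36 was the exception, with 9.55 and 9.70 on the LY101-4B arrays, against 9.94 and 9.98 on the vehicle arrays (-0.33 ± 0.10; adjusted p 0.0643); it passed without LY101-4B replicate 2 (0.0456).

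The U3 snoRNA pairs with the precursor to allow the early cuts of the small subunit RNA, and works with the complex of MPHOSPH10, IMP3 and IMP4. RRP9, the U3-specific protein, had 8.19 and 8.28 on the LY101-4B arrays, against 8.88 on both vehicle arrays, and fell 1.56-fold (limma adjusted p 0.00631; 0.0534 and 0.0516 without either vehicle array). IMP3 and IMP4 fell 1.40-fold and 1.29-fold (adjusted p 0.0151 and 0.0391). Neither passed when a vehicle array was left out (0.0921 to 0.273), and IMP4 did not pass without LY101-4B replicate 1 or 2 (0.0717 and 0.0765). MPHOSPH10 itself read 8.92 and 9.10 in LY101-4B cells, against 9.36 and 9.39 in vehicle cells (-0.36 ± 0.10, SE), which did not pass (adjusted p 0.0543; 0.0366 without LY101-4B replicate 2).

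All 5 remaining processome members were called lower. UTP20, a very large scaffold protein, had 7.76 and 8.07 on the LY101-4B arrays, against 9.12 on both vehicle arrays. Its LY101-4B arrays differed more from each other than the vehicle arrays did, yet both lay over 1 log2 unit below vehicle, and the gene fell by 1.21 ± 0.12 log2 units, or 2.31-fold (SE; limma adjusted p 0.00267). DDX10, an RNA helicase gene, fell 1.78-fold (adjusted p 0.0135; 0.0649 without vehicle replicate 2). NAT10, which acetylates cytidines of the 18S RNA, fell 1.66-fold (adjusted p 0.00579). NOP14 fell 1.45-fold (adjusted p 0.0101), and NOC4L, its partner in yeast, had 6.78 and 6.88 on the LY101-4B arrays, against 7.33 and 7.36 on the vehicle arrays, a 1.43-fold fall (adjusted p 0.0136). Neither NOP14 nor NOC4L passed when a vehicle array was left out (0.0785 to 0.105).

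Of the pre-40S factors, which carry the small subunit out of the nucleolus and finish it, 5 of 6 fell. BYSL, bystin, read 8.73 and 8.91 with LY101-4B, against 9.54 and 9.58 with vehicle, and fell by 0.75 ± 0.10 log2 units, or 1.68-fold (SE; limma adjusted p 0.00583). TSR1 fell 1.66-fold (adjusted p 0.00433), LTV1 1.54-fold, the endonuclease gene NOB1, whose product makes the final cut of the 18S RNA, 1.44-fold, and its partner PNO1 1.38-fold. The last 3 of these calls (adjusted p 0.0299, 0.0415 and 0.0252) were lost without either vehicle array or LY101-4B replicate 1, at 0.0561 to 0.185. RRP12, an export factor, stood apart from the others, with 8.96 and 9.02 on the LY101-4B arrays, against 9.02 and 8.94 on the vehicle arrays. Its groups overlapped and the difference was 0.01 ± 0.09 (adjusted p 0.975), or -0.059 with arrays centred on their medians.

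Of the 16 measured large subunit members 14 fell, 2 did not pass and 0 rose, with a median difference of -0.61 log2 units. All 3 genes of the PeBoW complex, which is needed to process the large subunit RNA, were called lower. BOP1 had 7.87 and 8.13 on the LY101-4B arrays, against 9.01 and 8.94 on the vehicle arrays, a 1.96-fold fall (limma adjusted p 0.00402); its other probe set fell by 0.75 log2 units. WDR12 fell 1.48-fold (adjusted p 0.0126), and PES1 had 8.84 and 8.87 on the LY101-4B arrays, against 9.25 and 9.28 on the vehicle arrays, a 1.33-fold fall (adjusted p 0.0224). The calls of WDR12 and PES1 were lost without either vehicle array (0.0843 to 0.173) and that of PES1 also without LY101-4B replicate 1 (0.0561).

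RRS1 and RPF2 place the 5S RNA particle on the growing large subunit and act as a pair. RRS1 read 7.37 and 7.42 with LY101-4B, against 8.45 and 8.40 with vehicle, and fell by 1.03 ± 0.09 log2 units, or 2.04-fold, with the smallest adjusted p of the members (SE; limma adjusted p 0.00161). RPF2 had 10.63 and 10.83 on the LY101-4B arrays, against 11.05 and 11.12 on the vehicle arrays, and its difference of -0.35 ± 0.10 did not pass (adjusted p 0.0683). That outcome rested on the choice of probe set: the other RPF2 probe set had 9.67 and 9.81 on the LY101-4B arrays, against 10.34 and 10.29 on the vehicle arrays, and was called lower (-0.58, adjusted p 0.0109), and the mean of both was called lower as well (adjusted p 0.0231). RPF2 also passed without LY101-4B replicate 2 (0.0398).

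All 7 measured factors of the early pre-60S particle were called lower. RRP1B, a nucleolar protein, had 8.39 and 8.53 on the LY101-4B arrays, against 9.39 and 9.44 on the vehicle arrays, a 1.94-fold fall (limma adjusted p 0.00242). FTSJ3, an RNA methyltransferase gene, fell 1.67-fold (adjusted p 0.00372), NOP16 1.54-fold (0.00669), BRIX1 1.52-fold (0.00883), NOP2, which encodes a methyltransferase of the 28S RNA, 1.44-fold (0.0105), and WDR74 1.44-fold (0.025). The helicase gene DDX56 moved least, with 9.60 and 9.63 on the LY101-4B arrays, against 10.05 and 10.02 on the vehicle arrays (1.34-fold, adjusted p 0.0218). The calls of NOP2, NOP16, WDR74 and DDX56 were lost without either vehicle array (0.0556 to 0.169), that of BRIX1 without vehicle replicate 2 (0.08), and those of WDR74 and DDX56 also without LY101-4B replicate 1 (0.0547 and 0.0551).

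Of the factors grouped here as later pre-60S or chaperone proteins, 3 of 4 measured fell. MRTO4, which holds the place of a stalk protein until a late stage of assembly, had 8.50 and 8.69 on the LY101-4B arrays, against 9.74 and 9.67 on the vehicle arrays. It fell by 1.11 ± 0.10 log2 units, the largest fall of the large subunit route, or 2.15-fold (SE; limma adjusted p 0.00206). NOC3L fell 1.89-fold (adjusted p 0.012; 0.0551 without vehicle replicate 2) and GRWD1, a chaperone of a ribosomal protein, 1.76-fold (adjusted p 0.00511). SDAD1, the relative of a yeast export factor, read 9.60 and 9.72 in LY101-4B cells, against 9.72 and 9.76 in vehicle cells, with overlapping groups and a difference of -0.07 ± 0.09 (adjusted p 0.648) that became 0.006 under cyclic loess.

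**Figure D3:**
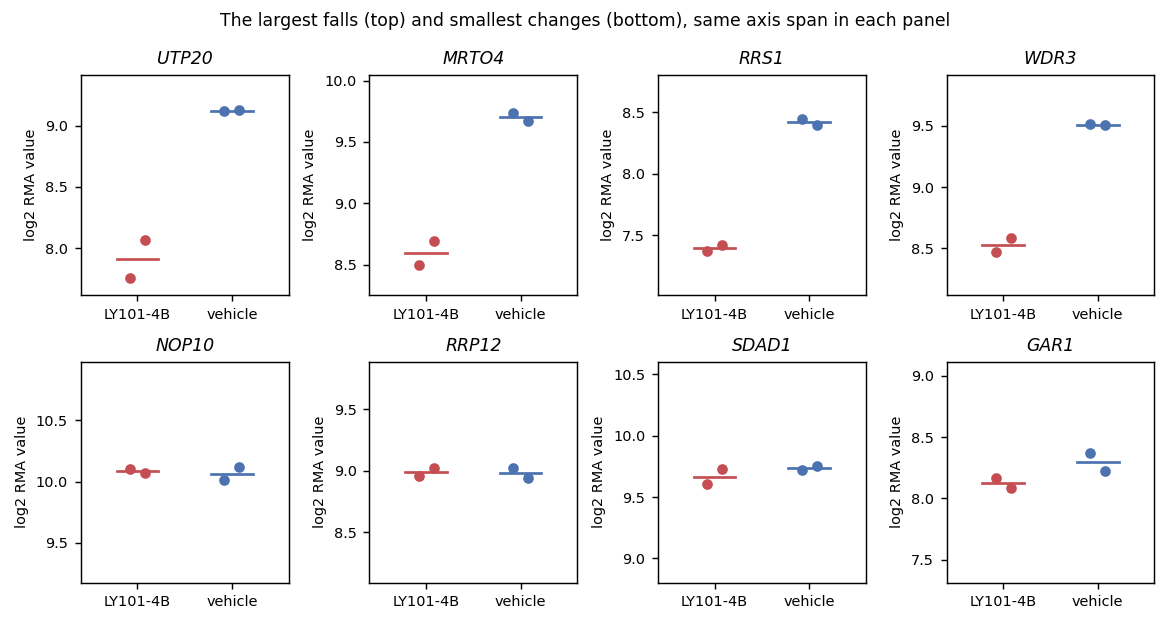
Log2 RMA values on the single arrays for the members with the largest falls (UTP20, MRTO4, RRS1, WDR3; top) and with the smallest absolute differences (NOP10, RRP12, SDAD1, GAR1; bottom); points are arrays, short lines group means (n = 2 each), LY101-4B on the left, and all panels span the same range. RRS1 stands at 7.37 and 7.42 with LY101-4B, against 8.45 and 8.40 with vehicle, while the points of NOP10 overlap.

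The small and the large subunit route were both lower. The small subunit members had a median of -0.52 log2 units (interquartile range -0.73 to -0.40) and the large subunit members one of -0.61 (-0.93 to -0.50), a difference of 0.095, small minus large. On LY101-4B replicate 1 the route medians, each array minus the vehicle mean, were -0.58 for the small and -0.64 for the large subunit, and on LY101-4B replicate 2 they were -0.47 for the small and -0.63 for the large subunit. The gap between the routes was thus 0.06 on LY101-4B replicate 1 and 0.16 on LY101-4B replicate 2, both measured from the same vehicle mean. On the vehicle arrays it was -0.005 and 0.005. These values mirror each other because each vehicle array was measured from the mean of both, so they are not separate readings of its spread. Both LY101-4B arrays thus put the large subunit median below the small subunit one, while the ranges of the members overlapped almost fully, -1.21 to 0.01 for the small and -1.11 to -0.07 for the large subunit. The share of members called lower was 83.3% in the small and 87.5% in the large subunit route. The snoRNP and general nucleolar genes had a median of -0.46, and 7 of 10 were called lower. With 2 arrays a group no test of the gap between routes was made.

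**Figure D4:**
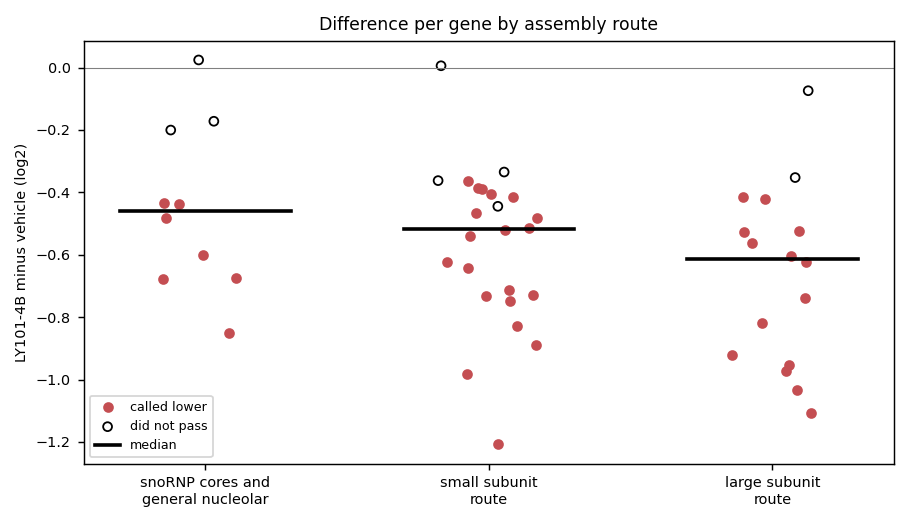
LY101-4B minus vehicle difference (log2) of each measured member by route; filled points were called lower, open points did not pass, and lines are medians (-0.46, -0.52 and -0.61 from left to right). The ranges of the 3 groups overlap.

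The LY101-4B arrays were not equal in depth of the fall. LY101-4B replicate 1 lay below LY101-4B replicate 2 in 42 of 50 members (84.0%), compared with 58.3% of all genes. The SD between replicate arrays had a median over the members of 0.087 log2 units for LY101-4B and 0.028 for vehicle.

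The fall reached beyond the 54 named genes. In a list of other small subunit factors 17 of 31 measured genes fell, 0 rose and 14 did not pass (median -0.39 log2 units; at an unadjusted limma p under 0.05, 25 were lower and 0 higher). They included NOL11 (1.92-fold) and NOL6 (1.74-fold), NOM1 (1.72-fold) and RRP7A (1.60-fold), with limma adjusted p from 0.00324 to 0.00637. Of 44 other large subunit factors 26 fell and 1 rose (median -0.50; at an unadjusted limma p under 0.05, 30 were lower and 2 higher). Those that fell included MDN1, the giant ATPase gene that strips factors from the pre-60S particle (1.85-fold), URB2 (1.84-fold), NOC2L (1.78-fold) and CCDC86 (1.76-fold). Both LY101-4B arrays lay below both vehicle arrays for 36 of these 44 genes and above them for 5, whereas 5215 of all 18417 measured genes lay above. The 5 were ZNF622, NOP53, RSL24D1, EIF6 and RBM34, the last 4 with adjusted p from 0.111 to 0.556. The gene that rose, named after its value was seen, was ZNF622, whose product acts on the large subunit late, in the cytoplasm: it had 8.63 and 8.78 on the LY101-4B arrays, against 8.22 and 8.28 on the vehicle arrays (1.37-fold, adjusted p 0.0242), a call lost without either vehicle array or LY101-4B replicate 2. Without vehicle replicate 1 or 2 the fit called 4 and 4 of the small subunit list and 9 and 9 of the large subunit list lower.

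Genes that assemble snoRNPs fell in 6 of 10 measured cases and rose in 0 (median -0.49; at an unadjusted limma p under 0.05, 8 were lower and 1 higher). Without either vehicle array 3 fell. TCOF1, which encodes treacle, the nucleolar protein that links ribosomal DNA transcription to RNA modification, had a fall close to that of UTP20, with 7.18 and 7.40 on the LY101-4B arrays, against 8.54 and 8.47 on the vehicle arrays (2.32-fold, limma adjusted p 0.00191). NUFIP1 fell 1.70-fold, RUVBL2, an ATPase of the assembly chaperone, 1.67-fold, and ZNHIT6 1.51-fold.

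In the list of rRNA transcription factors with MYC and MAX, 6 of 11 genes fell and 1 rose (median -0.37; at an unadjusted limma p under 0.05, 7 were lower and 2 higher). The fit called 2 lower when vehicle replicate 1 was left out, and 3 when it was vehicle replicate 2 or LY101-4B replicate 1. POLR1E, a subunit of RNA polymerase I, had 8.68 and 8.61 on the LY101-4B arrays, against 9.67 and 9.70 on the vehicle arrays, a 2.06-fold fall (limma adjusted p 0.00158). POLR1B fell 1.72-fold, UBTF, which organises active ribosomal DNA, 1.51-fold, and TAF1A 1.39-fold. RRN3, the initiation factor of the polymerase, read 9.68 and 9.84 with LY101-4B, against 10.11 and 10.14 with vehicle, and narrowly did not pass (-0.36 ± 0.10, SE; adjusted p 0.0519). The MYC transcript had 10.59 and 10.64 on the LY101-4B arrays, against 10.75 and 10.68 on the vehicle arrays, a difference of -0.10 ± 0.09 that did not pass (adjusted p 0.498). Its partner gene MAX had 7.81 and 7.85 on the LY101-4B arrays, against 7.40 and 7.35 on the vehicle arrays, and rose 1.37-fold (adjusted p 0.0179), a call lost without either vehicle array. Transcript levels say nothing of the MYC or MAX protein.

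Proliferation markers moved with the members: all 9 of the list fell, with a median of -1.86 log2 units, and 8 of them fell at least 2-fold. CCNB1, a mitotic cyclin gene, fell least, by 0.65 log2 units, which lies within the range of the members. MCM2, MCM4 and MCM3, subunits of the replicative helicase, fell 4.39-fold, 4.27-fold and 4.08-fold, and PCNA, the polymerase clamp, 3.63-fold (limma adjusted p 0.00043 to 0.000525). The median level of the 9 genes was 9.21 and 9.13 on the LY101-4B arrays, against 10.72 and 10.80 on the vehicle arrays. Their part in the fall of the assembly factors was not tested.

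**Figure D5:**
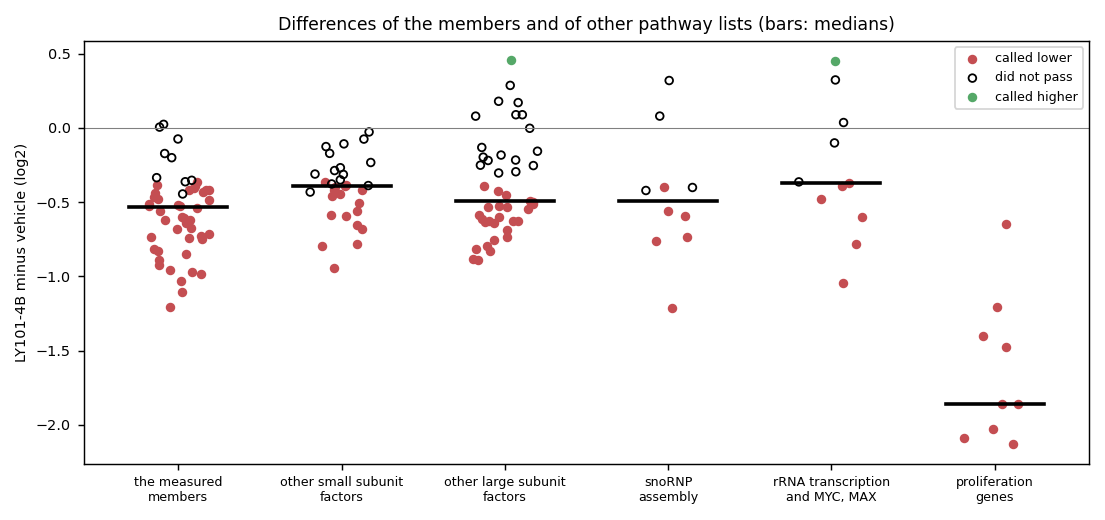
LY101-4B minus vehicle difference (log2) for the 50 measured members and for 5 other lists; red points were called lower, green points higher, open points did not pass, and lines are medians. The proliferation genes have the lowest median (-1.86), and the other lists of the pathway overlap the members.

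The number of genes called in each direction depended on the scaling of the arrays. With the deposited values 1973 of 18417 genes were called lower and 1636 higher, so 54.7% of calls were falls, and with arrays centred on their medians the counts were 2405 and 1298 (64.9%), and under cyclic loess 1889 and 1830 (50.8%). Cyclic loess called 34 members lower, and NOP58, NHP2, UTP4, UTP15, WDR43, IMP4 and NOB1 no longer passed (limma adjusted p 0.051 to 0.0855). Of the members, 47 were lower than vehicle in each of the 12 other settings tried, and NOP10, RRP12 and SDAD1 changed sign in at least 1.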

How the data were processed

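Per the submitters' processing notes the authors deposited log2 values from RMA, 1 per probe set; the sources used here name no software version, probe set definition or filter. The table holds 33297 rows on 4 arrays, and all 4 columns were mapped by sample (0 left over). Of the rows, 21214 had at least 1 gene symbol in the platform annotation and entered 1 linear model in R 4.3.3 with the limma package, version 3.58.1 (lmFit, then eBayes; treatment as only term, 2-sided, Benjamini-Hochberg over these rows, threshold 0.05; 2 residual degrees of freedom, prior worth 3.75). For a gene, the probe set with the highest mean was taken among the 19460 with 1 symbol. The fit was tested on simulated data: with variances drawn from its own prior, false calls stayed near the threshold, whereas with the more skewed posterior variances they exceeded it, so adjusted p-values just under the threshold are less firm. The number of arrays limits the precision.

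The members, the lists and the routes were chosen with earlier results of these data known. Arrays of each member with the largest and the smallest change in its subgroup, and of all that did not pass, are given, with up to 4 genes per other list. Alternatives were other scalings, priors, row sets, probe set averages, the replicate number as a block and leaving out each array. Promoter matches were counted in RefSeq sequences (GRCh38.p14).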

Additional observations from a re-analysis of the deposited data

How the results depend on the processing

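No member was called higher in any setting tried. Tested over all rows of the table, the fit called 24 members lower (4 general, 10 small subunit), 7 other small subunit factors and 3 rRNA transcription factors. Of all 18417 genes it called 981 lower (5.33%), against 1973 (10.7%) with the annotated rows only. More rows enter the adjustment there, and the prior is estimated on them as well. With all rows the fit called 0 of the other large subunit factors and 0 of the rRNA transcription factors higher. Of the other large subunit factors 2 were called higher with the brighter 50% of probe sets and 2 with an intensity trend, and of the snoRNP assembly factors 1 under each of these and 1 under cyclic loess. Median differences with arrays centred on their medians and under cyclic loess were -0.52 and -0.37 for general, -0.58 and -0.45 for small and -0.68 and -0.53 for large subunit members; with the mean of a gene's probe sets the general members had -0.50. The cause was not tested.

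Leaving out 1 array gave 16 to 42 members called lower, with 3 to 6 general, 7 to 21 small and 6 to 15 large subunit members, 4 to 21 other small and 9 to 26 other large subunit factors (0 to 1 higher), 3 to 8 snoRNP assembly factors and 2 to 7 rRNA transcription factors (0 to 1 higher). Medians ranged from -0.55 to -0.46 for general, -0.58 to -0.47 for small and -0.65 to -0.59 for large subunit members, and the small minus large gap from 0.063 to 0.156. NOP10 (-0.04 with median centring, -0.027 to 0.076 without 1 array), RRP12 (-0.059 with median centring, -0.035 to 0.047 without 1 array) and SDAD1 (0.006 under cyclic loess) changed sign.

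With the replicate number as a block 42 members were called lower, among them WDR75 (adjusted p 0.0444). Same-numbered arrays deviated together at r = 0.116 over the annotated probe sets, and with 2 pairs this does not show that the numbers pair the cultures.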
